A study of Mus musculus with 9 samples.

Results

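Iron storage, import and export were followed through 10 genes in DC2.4, a mouse dendritic cell line. The genes are Fth1 and Ftl1 (the ferritin chains), Ncoa4 (which delivers ferritin for breakdown), Tfrc and Steap3 (uptake of transferrin iron), Slc11a2 and Slc11a1 (transport across endosomal and phagosomal membranes), Slc40a1 (export), Hmox1 (haem breakdown) and Ireb2 (iron regulatory protein 2). They were chosen by name for their place in iron handling, with earlier results of these data known. Each had 1 row among the 21959 rows of the deposited table, and all 10 were among the 11568 genes with enough counts to be tested.

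The 9 libraries were made from total RNA, 3 each for PBSDC, OMVSSDC and ZJDC as titled. The description of the study speaks of exposing these cells to engineered vesicles and of immune genes; all 3 groups are the same cell line. PBS usually abbreviates phosphate-buffered saline, and the PBSDC libraries were taken as the reference. What OMVSS and ZJ stand for, the doses, the exposure times and whether replicates were separate cultures are not given in the labels, so p-values measure the spread between these libraries, which may be technical.

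As background, a cell takes up iron mainly as transferrin bound to the transferrin receptor, reduces it in the endosome, passes it to the cytosol, stores the excess inside the ferritin shell and releases iron through ferroportin, the product of Slc40a1. Iron regulatory proteins bind iron-responsive elements, short RNA hairpins, when iron is scarce: binding near the start of ferritin and ferroportin messages blocks their translation, and binding in the tail of the transferrin receptor message protects it from decay. Dendritic cells and macrophages are also known to change iron handling during inflammation, when iron is withheld from microbes. Sequencing measured messenger RNA, not protein or iron.

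In the deposited table's coordinates, whose build is not stated there, Fth1 lies at chr19:9957962-9962462 on the plus strand, Ftl1 at chr7:45107368-45109308 on the minus strand, Tfrc at chr16:32427738-32451612 on the plus strand and Slc40a1 at chr1:45947228-45965683 on the minus strand.

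The hairpins are shown because they are the sequences through which iron regulatory proteins are known to act on ferritin, ferroportin and transferrin receptor messages. A search of GENCODE M21 transcripts (GRCm38) for a 27-base hairpin, with a bulged C, a loop of CAGTGN and paired stems of 5 bases on either side of the bulge (at most 1 mismatch, in the lower stem), found it in 4 of the 10 genes and not in Ncoa4, Steap3, Slc11a2, Slc11a1, Hmox1 or Ireb2. These were Fth1, Ftl1 and Slc40a1, each in the 5′ UTR, and Tfrc, with 4 hairpins in the 3′ UTR. G with T was counted as a pair, and each ferritin hairpin held the 1 mismatch allowed. By comparison, 30 of 21877 protein-coding genes (0.137%) held such a hairpin and 17 (0.0777%) held it in a UTR, while CAGTG by itself occurred in 94% of them. Of a further 53 genes of iron and haem handling, listed below by role, 1 held it. Iron regulatory proteins were already known to act on the messages of the 4 genes found, so the matches there are no test. Sequences are of the sense strand, 5′ to 3′, with the bulged C and the loop in capitals.
Fth1, transcript positions 88 to 114: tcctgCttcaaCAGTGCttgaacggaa
Ftl1, positions 79 to 105: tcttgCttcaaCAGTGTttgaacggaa
Slc40a1, positions 91 to 117: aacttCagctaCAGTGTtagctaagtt
Tfrc, positions 3316 to 3342: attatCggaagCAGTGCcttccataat
Tfrc, positions 3695 to 3721: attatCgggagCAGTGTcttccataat
Tfrc, positions 3760 to 3786: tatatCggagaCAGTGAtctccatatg
Tfrc, positions 3807 to 3833: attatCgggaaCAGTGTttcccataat
The ferritin hairpins differed from each other at 2 bases. A match is a description of the letters, and binding was not measured.

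Library totals ranged from 12784931 to 18388959 counts, and the limit that a count of 0 allows (3 counts) was 0.163 to 0.235 CPM (a library's counts scaled to a common total). OMVSSDC replicate 3 stood apart from its group: chi-square divided by its degrees of freedom was 62.4 and 65.1 for its counts against OMVSSDC replicates 1 and 2, against 1.89 between those replicates and at most 9.01 within the other groups. Results that rest on it are therefore given with and without it. All 10 dendritic and myeloid markers were detected, though Itgax, which encodes the integrin CD11c, was low at 1.68 to 4.80 CPM; the summed markers were 4719 to 4855 CPM in PBSDC, 3785 to 4444 in OMVSSDC and 4139 to 4270 in ZJDC. Of 8 markers of iron-recycling macrophages, Marco (678 to 2050 CPM) gave nearly all counts and Vsig4 was at 0 in every library; their sum was 1997 to 2051 CPM in PBSDC, 679 to 885 in OMVSSDC and 964 to 1115 in ZJDC. The 9 erythroid markers summed to at most 1.29 CPM except in OMVSSDC replicate 1 (10.1 CPM), and the part of these marker levels in the results was not tested.

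In OMVSSDC and in ZJDC alike, set against PBSDC, the ferritin and export genes rose, and Tfrc and Steap3, of transferrin iron uptake, fell. The ferritin chains, the exporter Slc40a1 and the transporter Slc11a2, which acts in a later step of transferrin iron uptake, rose. The transferrin receptor Tfrc, the reductase Steap3, the ferritin receptor Ncoa4 and the regulator Ireb2 fell. In OMVSSDC 4 of the 10 genes were higher and 4 lower at an adjusted p under 0.05 (edgeR quasi-likelihood test, Benjamini-Hochberg over all genes tested), where 33.4% of all genes tested were higher and 30.2% lower. In ZJDC the count was again 4 higher and 4 lower, where 27.6% of all genes were higher and 27.1% lower. The Ireb2 calls in both groups and the Slc11a2 call in ZJDC were lost when any single PBSDC or ZJDC library was left out. Of all genes tested 63.6% and 54.7% were called in these comparisons, so a count of 8 of 10 is read against that. The median absolute log2 fold change was 0.91 over the 10 genes against 0.48 over all genes in OMVSSDC, and 0.68 against 0.39 in ZJDC. As the genes were chosen with earlier results of these data known, these counts and medians describe the list and are no test of it. Both comparisons share the PBSDC libraries, so their values stand side by side and are not independent. In bulk RNA, fewer cells that express a gene and less RNA per cell cannot be told apart.

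**Figure D1:**
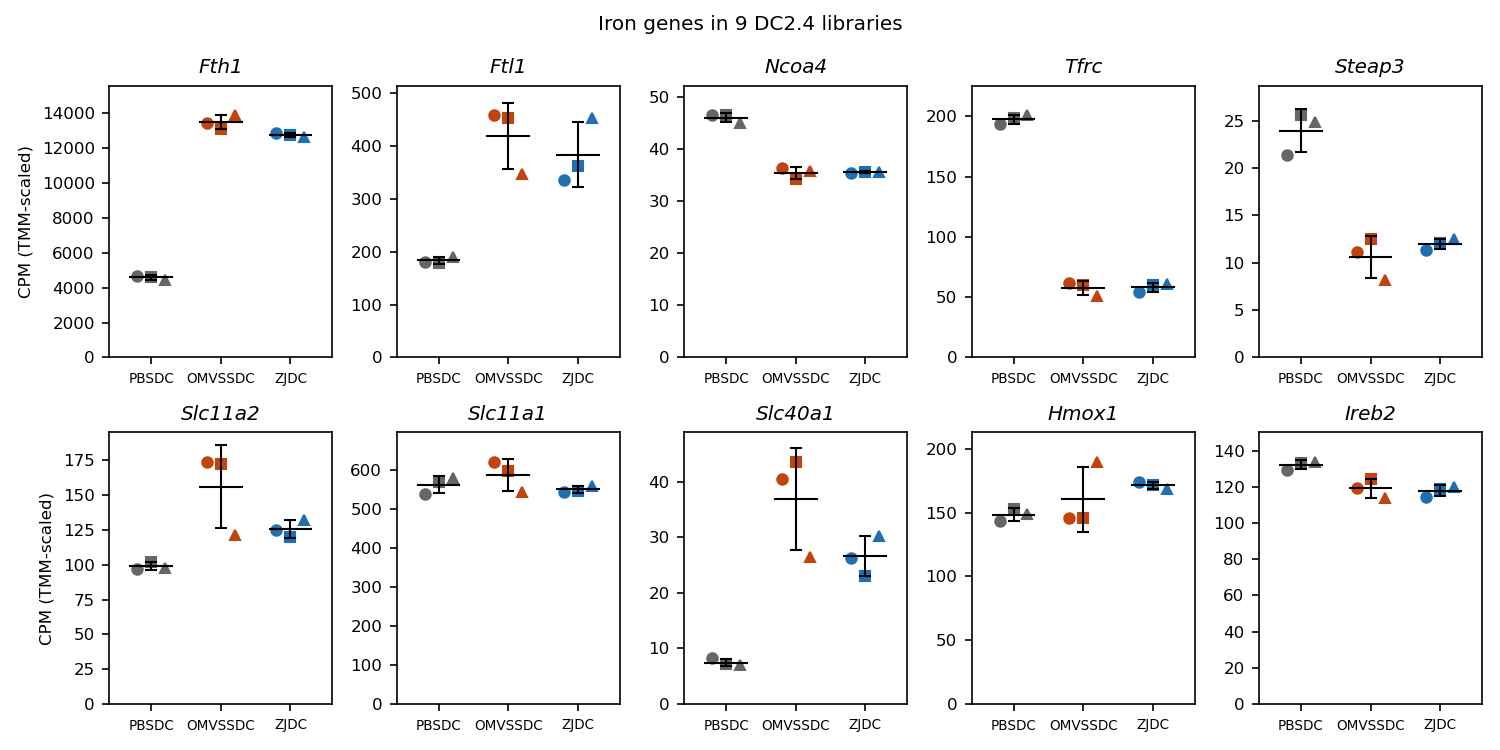
Level of each of the 10 iron genes in CPM (TMM-scaled, linear axes from 0) in the 9 libraries; circles, squares and triangles are replicates 1, 2 and 3, horizontal lines the group means and bars the SD. Fth1, Ftl1 and Slc40a1 sat higher in all 6 OMVSSDC and ZJDC libraries than in any PBSDC library, Tfrc, Steap3 and Ncoa4 sat lower, and the OMVSSDC triangle (replicate 3) stood off from its group for Ftl1, Slc11a2, Slc40a1 and Hmox1.

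Fth1 encodes the ferritin heavy chain, whose ferroxidase site oxidises iron as it enters the shell. It was measured at 4685, 4637 and 4434 CPM in PBSDC replicates 1 to 3, at 13438, 13098 and 13900 CPM in OMVSSDC, and at 12877, 12735 and 12653 CPM in ZJDC. The groups did not overlap, and all 6 libraries of OMVSSDC and ZJDC were above all of PBSDC. Fth1 rose 2.94-fold in OMVSSDC (log2 fold change 1.56, SE 0.050, edgeR adjusted p = 1.22e-08) and 2.78-fold in ZJDC (1.48, SE 0.050, adjusted p = 2.10e-08). By mean FPKM (counts per kilobase of gene, scaled by the library total) over the 9 libraries, Fth1 was number 7 of the 21959 rows. That rank rests on the table's gene lengths.

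Ftl1 encodes the ferritin light chain, which helps the iron core to form. Its levels were 180, 179 and 191 CPM in PBSDC, 459, 453 and 347 CPM in OMVSSDC, and 336, 362 and 453 CPM in ZJDC. All PBSDC libraries were lowest, while OMVSSDC replicate 3 lay among the ZJDC libraries and ZJDC replicate 3 lay beside the other OMVSSDC libraries. Ftl1 rose 2.29-fold in OMVSSDC (log2 fold change 1.19, SE 0.13, edgeR adjusted p = 2.46e-05) and 2.09-fold in ZJDC (1.07, SE 0.13, adjusted p = 7.41e-05). Without OMVSSDC replicate 3 the log2 fold change in OMVSSDC was 1.31, and with that replicate as the sole library of its group it was 0.91. Ferritin genes have near-identical copies, and the authors' handling of reads shared with them (not given in the sources used here) could move counts between rows. The row Ftl1-ps1 held 46 to 174 counts in any library and the 6 Fthl17 rows held 0 in all 9 libraries; adding these counts to the genes left the ferritin calls in place.

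Together the chains took 0.464%, 0.461% and 0.443% of all counts in PBSDC replicates 1 to 3. The share was 1.48%, 1.45% and 1.43% in OMVSSDC, and 1.31%, 1.31% and 1.33% in ZJDC. The 3 groups did not overlap, and OMVSSDC was highest. These shares use library totals without TMM scaling. On that scale the median log2 difference of OMVSSDC from ZJDC over all genes was 0.075, and that of Fth1 was 0.14. With TMM scaling Fth1 differed by 0.080 between these groups (edgeR adjusted p = 0.274). The mean share was 1.45% ± 0.024 (SD, n = 3) in OMVSSDC, 1.31% ± 0.012 (SD, n = 3) in ZJDC and 0.456% ± 0.011 (SD, n = 3) in PBSDC; the two-sided exact permutation p was 0.1 for each of the 3 pairs (0.1 after Benjamini-Hochberg adjustment over the 3), the smallest that 3 against 3 libraries allow. Counting error was small: the 95% Clopper-Pearson interval of the Fth1 share was 1.42% to 1.44% in OMVSSDC replicate 1 and 0.444% to 0.450% in PBSDC replicate 1, and covers counting error only.

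Mature ferritin is a shell of mixed heavy and light chains, so their messages were also set against each other per length. The Fth1 to Ftl1 ratio of FPKM was 10.04, 9.995 and 8.97 in PBSDC. It was 11.3, 11.2 and 15.5 in OMVSSDC and 14.8, 13.6 and 10.8 in ZJDC. All 6 OMVSSDC and ZJDC libraries were above PBSDC, and those groups overlapped each other. The mean ratio was 9.67 ± 0.61 (SD, n = 3) in PBSDC, 12.7 ± 2.5 (SD, n = 3) in OMVSSDC and 13.1 ± 2.1 (SD, n = 3) in ZJDC. The two-sided exact permutation p was 0.1 for either group against PBSDC, the smallest possible (0.15 adjusted over 3 comparisons), and 1 between OMVSSDC and ZJDC. The log2 difference of OMVSSDC from PBSDC was 0.37 with all libraries, 0.22 without OMVSSDC replicate 3 and 0.68 with that replicate as the sole library of its group. The absolute ratio rests on the table's gene lengths, 3469 bases for Fth1 and 1340 for Ftl1, where the reference transcripts shown above are 929 and 968 bases; the differences between groups do not depend on these lengths.

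**Figure D2:**
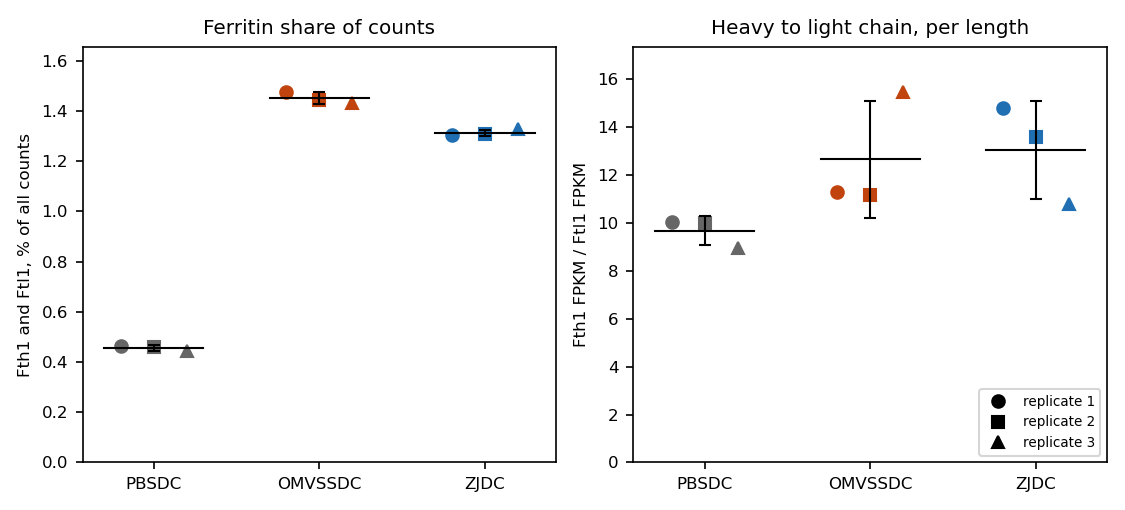
Left, percent of all counts from Fth1 and Ftl1 together in each library; right, ratio of Fth1 FPKM to Ftl1 FPKM. Points are libraries, marked by replicate, with the group mean and SD; ferritin took 0.443% to 0.464% of counts in PBSDC and 1.31% to 1.48% in the other 6 libraries, and the ratio spread from 10.8 to 15.5 in those 6.

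Ncoa4 encodes the receptor that carries ferritin to the lysosome, where its iron is set free. Its levels were 46.54, 46.50 and 44.98 CPM in PBSDC, 36.3, 34.2 and 35.8 CPM in OMVSSDC, and 35.4, 35.7 and 35.6 CPM in ZJDC. The PBSDC libraries were all highest and the other groups overlapped each other. Ncoa4 fell to 0.770 times the PBSDC level in OMVSSDC (log2 fold change -0.38, SE 0.065, edgeR adjusted p = 0.000547) and to 0.773 times in ZJDC (-0.37, SE 0.065, adjusted p = 0.000775). Ncoa4 moved opposite to both ferritin chains.

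Tfrc encodes the transferrin receptor, the main door for transferrin iron. Its levels were 193, 198 and 201 CPM in PBSDC, 61.8, 60.0 and 51.1 CPM in OMVSSDC, and 53.9, 60.1 and 60.5 CPM in ZJDC. No library of OMVSSDC or ZJDC came near the PBSDC range. Tfrc fell to 0.292 times the PBSDC level in OMVSSDC (log2 fold change -1.78, SE 0.084, edgeR adjusted p = 9.98e-08) and to 0.294 times in ZJDC (-1.76, SE 0.083, adjusted p = 2.08e-07). Ranked by absolute log2 fold change among the 11568 genes tested, Tfrc was number 680 in OMVSSDC and number 455 in ZJDC.

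Steap3 encodes the endosomal reductase that turns ferric iron from transferrin into the ferrous form. Its levels were 21.4, 25.6 and 24.9 CPM in PBSDC, 11.1, 12.5 and 8.19 CPM in OMVSSDC, and 11.4, 12.1 and 12.5 CPM in ZJDC. PBSDC was higher without overlap, and OMVSSDC replicate 3 was the lowest library. Steap3 fell to 0.444 times the PBSDC level in OMVSSDC (log2 fold change -1.17, SE 0.15, edgeR adjusted p = 6.70e-05) and to 0.501 times in ZJDC (-0.997, SE 0.15, adjusted p = 0.000255). Without OMVSSDC replicate 3 the log2 fold change in OMVSSDC was -1.01. With that replicate as the sole library of its group it was -1.55.

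Slc11a2 encodes divalent metal transporter 1, which passes ferrous iron from the endosome to the cytosol. Its levels were 96.7, 102 and 97.9 CPM in PBSDC, 174, 172 and 122 CPM in OMVSSDC, and 125, 120 and 132 CPM in ZJDC. PBSDC was lowest without overlap, and OMVSSDC replicate 3 lay within the ZJDC range. Slc11a2 rose 1.58-fold in OMVSSDC (log2 fold change 0.66, SE 0.12, edgeR adjusted p = 0.000903) and 1.27-fold in ZJDC (0.35, SE 0.12, adjusted p = 0.0340). The value in OMVSSDC was 0.81 without replicate 3 and 0.29 with replicate 3 as the sole library. The call in ZJDC was lost in 7 of 19 other settings, among them leaving out any single PBSDC or ZJDC library, with adjusted p up to 0.108. The search above, which reads 1 strict form of the hairpin, had no match in Slc11a2. It cannot tell whether another form of the hairpin is present there.

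Slc11a1 encodes NRAMP1, which pumps metals out of the phagosome of macrophages and related cells. Its levels were 538, 569 and 582 CPM in PBSDC, 622, 597 and 544 CPM in OMVSSDC, and 545, 547 and 561 CPM in ZJDC. All 3 groups overlapped. The log2 fold change was 0.062 in OMVSSDC (95% interval -0.083 to 0.21, edgeR adjusted p = 0.421) and -0.031 in ZJDC (-0.18 to 0.11, adjusted p = 0.704). Without OMVSSDC replicate 3 the value in OMVSSDC was 0.11 and passed (adjusted p = 0.0155), and with that replicate as the sole library of its group it was -0.054 and did not (adjusted p = 0.419). These intervals leave out a change as large as that of Slc11a2 in OMVSSDC.

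Slc40a1 encodes ferroportin, the known iron exporter of mammalian cells. Its levels were 8.20, 7.20 and 6.94 CPM in PBSDC, 40.5, 43.6 and 26.4 CPM in OMVSSDC, and 26.3, 23.1 and 30.3 CPM in ZJDC, from 95 to 781 counts a library. PBSDC was lowest without overlap, and OMVSSDC replicate 3 lay within the ZJDC range. Slc40a1 rose 4.94-fold in OMVSSDC (log2 fold change 2.30, SE 0.20, edgeR adjusted p = 4.34e-06) and 3.57-fold in ZJDC (1.83, SE 0.20, adjusted p = 3.07e-05). By absolute size this was number 338 and number 412 of the 11568 genes, above the other 9 iron genes in both comparisons. Without OMVSSDC replicate 3 the log2 fold change in OMVSSDC was 2.49. With that replicate as the sole library it was 1.81, a smaller size than that of Tfrc in the same fit (-1.96). Marco, the macrophage scavenger receptor listed among the iron-recycling markers, was lower in both groups than in PBSDC. The sum of that list was lower too, but nearly all of it was Marco, as given above.

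Hmox1 encodes haem oxygenase 1, which frees iron from haem. Its levels were 143, 153 and 149 CPM in PBSDC, 146, 146 and 190 CPM in OMVSSDC, and 174, 172 and 169 CPM in ZJDC. OMVSSDC replicates 1 and 2 lay within the PBSDC range, replicate 3 was the highest of all libraries, and ZJDC was above PBSDC without overlap. The log2 fold change was 0.11 in OMVSSDC (95% interval -0.11 to 0.33, edgeR adjusted p = 0.333) and 0.21 in ZJDC (-0.010 to 0.43, adjusted p = 0.0969). The value in OMVSSDC was -0.025 without OMVSSDC replicate 3 (adjusted p = 0.645) and 0.35 with that replicate as the sole library of its group (adjusted p = 2.35e-05). The value in ZJDC was 0.21 in both of these fits and passed in both (adjusted p = 9.17e-05 and 0.000183), as it did with PBSDC and ZJDC fitted alone (0.22, adjusted p = 0.000175).

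Ireb2 encodes iron regulatory protein 2, which binds the hairpins shown above and is itself broken down when iron is plentiful. Its levels were 129, 133 and 134 CPM in PBSDC, 120, 124 and 114 CPM in OMVSSDC, and 114, 119 and 120 CPM in ZJDC. PBSDC was highest without overlap on this scale, by a narrow margin. Ireb2 fell to 0.903 times the PBSDC level in OMVSSDC (log2 fold change -0.15, SE 0.059, edgeR adjusted p = 0.0485) and to 0.891 times in ZJDC (-0.17, SE 0.059, adjusted p = 0.0352). These calls were fragile, held by 6 of 19 other settings in OMVSSDC and 10 of 19 in ZJDC. Leaving out any single PBSDC or ZJDC library ended them (adjusted p 0.0598 to 0.119 in OMVSSDC and 0.0602 to 0.124 in ZJDC), as did leaving out OMVSSDC replicate 1 for OMVSSDC (0.0831). With libraries scaled by their total alone the log2 fold change was -0.019 in OMVSSDC and -0.10 in ZJDC, a scaling that moved the median of all genes in OMVSSDC by 0.13; relative to that median Ireb2 was at -0.20.

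By overlap of the libraries, 4 of the 10 genes were above and 4 below PBSDC in OMVSSDC, where 33.9% and 31.8% of all genes tested were (65.7% in either direction). In ZJDC 5 were above (Hmox1 in addition) and 4 below, where 36.2% and 36.0% of all genes were (72.2% in either direction). The calls for Fth1, Ftl1, Ncoa4, Tfrc, Steap3 and Slc40a1 against PBSDC held in both groups under each of the 19 other settings tried (20 for the ferritin chains), with Slc11a2 added in OMVSSDC. Across them the log2 fold change of Fth1 ranged from 1.52 to 1.68 in OMVSSDC and from 1.45 to 1.54 in ZJDC, and that of Tfrc from -1.96 to -1.65 and from -1.80 to -1.70.

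**Figure D3:**
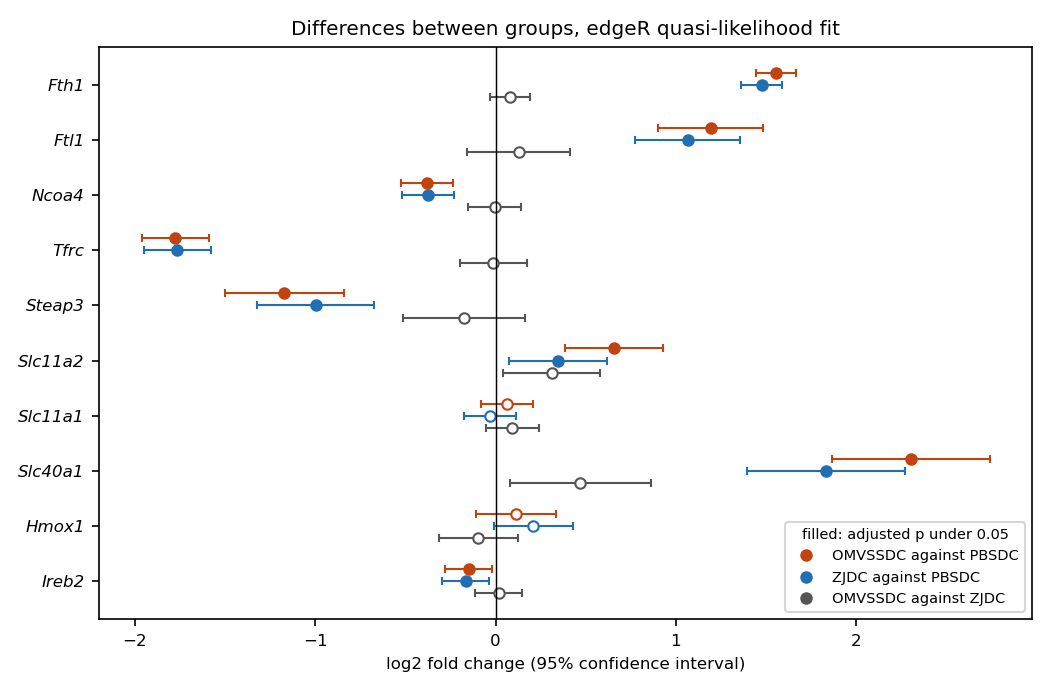
Log2 fold change with its 95% confidence interval for each of the 10 iron genes in the 3 comparisons; filled points had an adjusted p under 0.05. Fth1, Ftl1, Slc11a2 and Slc40a1 lie to the right and Ncoa4, Tfrc, Steap3 and Ireb2 to the left in both comparisons with PBSDC, while all 10 points of OMVSSDC against ZJDC are open.

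OMVSSDC and ZJDC were then compared with each other. None of the 10 genes passed (0 higher and 0 lower by the edgeR quasi-likelihood test), where 0.856% of all genes tested were higher and 1.10% lower (1.95% in all). At an unadjusted p under 0.05 there were 2, Slc11a2 and Slc40a1, where 31.8% of all genes had such a p, and limma-voom and DESeq2 also called 0. The median absolute log2 fold change was 0.094 over the 10 genes and 0.20 over all genes. Libraries did not overlap for Fth1, which was higher in OMVSSDC, where 11.7% of all genes were higher without overlap and 24.0% were apart in either direction.

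The intervals show what size of difference remained possible. For Fth1 the log2 difference of OMVSSDC from ZJDC was 0.080 (95% interval -0.030 to 0.19, edgeR adjusted p = 0.274) and for Ftl1 0.13 (-0.16 to 0.41, adjusted p = 0.497). Tfrc differed by -0.013 (-0.20 to 0.17, adjusted p = 0.924), Ncoa4 by -0.0056 (-0.15 to 0.14) and Ireb2 by 0.018 (-0.11 to 0.15). Steap3 was at -0.17 (-0.51 to 0.16), Slc11a1 at 0.094 (-0.051 to 0.24) and Hmox1 at -0.095 (-0.31 to 0.12). The widest differences were those of Slc40a1, 0.47 (0.078 to 0.86, adjusted p = 0.113), and Slc11a2, 0.31 (0.043 to 0.58, adjusted p = 0.119).

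This comparison turned on OMVSSDC replicate 3. Without it 4 of the 10 genes passed the same edgeR test. That fit called 6539 of the 11761 genes it tested, in place of 226 of 11568, so a count of 4 of 10 is read against that. Slc40a1 (log2 difference 0.65, edgeR adjusted p = 1.42e-06), Slc11a2 (0.46, adjusted p = 1.54e-08) and Slc11a1 (0.14, adjusted p = 0.00427) were higher in OMVSSDC. Hmox1 (-0.24, adjusted p = 0.000146) was lower. With replicate 3 as the sole OMVSSDC library, assumed to vary like the other groups, the values were -0.028, -0.057, -0.027 and 0.14 for these genes and none passed. The higher Slc40a1, Slc11a2 and Slc11a1 were seen in OMVSSDC replicates 1 and 2 and not in replicate 3.

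Compared per length in FPKM, the order of the 10 genes in PBSDC was Fth1 (1264 ± 34, SD, n = 3), Slc11a1 (145 ± 6.1), Ftl1 (131 ± 4.9), Hmox1 (81.1 ± 2.8), Tfrc (30.5 ± 0.66), Slc11a2 (14.9 ± 0.46), Ireb2 (13.3 ± 0.28), Ncoa4 (4.70 ± 0.082), Steap3 (4.01 ± 0.39) and Slc40a1 (0.791 ± 0.069). No neighbours in this order overlapped between libraries. The order between genes rests on the table's gene lengths, which exceed the reference transcripts by unlike factors. They are 9000 against 3370 bases for Slc40a1 and 6185 against 4890 for Tfrc, so close places could change with other lengths. In OMVSSDC the order became Fth1 (4057 ± 54), Ftl1 (328 ± 59), Slc11a1 (166 ± 16), Hmox1 (95.5 ± 12), Slc11a2 (25.8 ± 5.7), Ireb2 (13.2 ± 0.97), Tfrc (9.76 ± 1.3), Slc40a1 (4.30 ± 1.2), Ncoa4 (3.95 ± 0.15) and Steap3 (1.94 ± 0.46), with Slc40a1 and Ncoa4 overlapping. Ftl1 moved above Slc11a1, Tfrc below Slc11a2 and Ireb2, and Slc40a1 from the lowest place to one beside Ncoa4. In ZJDC the order was the same except that Ncoa4 (3.80 ± 0.060) stood above Slc40a1 (2.96 ± 0.43) without overlap, and Fth1 was at 3677 ± 14.

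The surrounding pathway was read from a further 53 genes of iron and haem handling, of which 39 could be tested. In OMVSSDC 11 of the 39 were higher and 13 lower than PBSDC, and in ZJDC 11 were higher and 14 lower. Of all genes tested, 33.4% were higher and 30.2% lower in OMVSSDC and 27.6% and 27.1% in ZJDC, so these shares are at or near the background. Their median absolute log2 fold change was 0.35 in OMVSSDC and 0.38 in ZJDC, against 0.48 and 0.39 over all genes. Between OMVSSDC and ZJDC 0 of the 39 passed in edgeR, where 1.95% of all genes tested did. At an unadjusted p under 0.05 there were 16 of the 39, where 31.8% of all genes had such a p. DESeq2 called 3 of the 39 and 1644 of all 11568 genes, and limma-voom called 1 of the 39.

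In a group of 5 genes, made up of iron regulatory protein 1, a regulator of these proteins, iron chaperones and Epas1, 3 fell and 0 rose in OMVSSDC, and 3 fell and 1 rose in ZJDC, where 33.4% of all genes were higher and 30.2% lower in OMVSSDC and 27.6% and 27.1% in ZJDC. Aco1, which encodes iron regulatory protein 1, was at 42.1 ± 1.3 CPM (SD, n = 3) in PBSDC, 25.98 ± 2.7 in OMVSSDC and 25.3 ± 1.5 in ZJDC. It fell by 0.69 on the log2 scale in OMVSSDC (SE 0.093, edgeR adjusted p = 0.0001) and by 0.73 in ZJDC (SE 0.093, adjusted p = 9.47e-05). Epas1, which encodes the hypoxia-inducible factor HIF-2α, fell by 1.59 in OMVSSDC and by 1.17 in ZJDC. The iron chaperone gene Pcbp1 fell by 0.30 and by 0.28, and lost its call without PBSDC replicate 3 in both comparisons (edgeR adjusted p = 0.0562 and 0.0906) and without ZJDC replicate 1 or 2 in ZJDC (0.0929 and 0.0783).

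Of the transferrin cycle, 5 of 9 genes were tested, and in each comparison 1 was higher and 2 were lower, where 33.4% of all genes were higher and 30.2% lower in OMVSSDC and 27.6% and 27.1% in ZJDC. Snx3, a sorting nexin that returns the transferrin receptor to the surface, fell by 0.44 on the log2 scale in OMVSSDC and was at -0.25 in ZJDC (edgeR adjusted p = 0.0732), where it passed without OMVSSDC replicate 3 (adjusted p = 1.71e-05). Trf, which encodes transferrin, fell by 0.32 in OMVSSDC and by 0.60 in ZJDC. Its call in OMVSSDC was held by 9 of 19 other settings and was lost without OMVSSDC replicate 2 or without any single PBSDC or ZJDC library (adjusted p 0.0523 to 0.128). The ferric reductase gene Cybrd1 rose by 0.84 and by 1.01 on the log2 scale from 17 to 51 counts a library, and its call in OMVSSDC was lost when OMVSSDC replicate 2 or PBSDC replicate 1 or 2 was left out (adjusted p = 0.113, 0.0857 and 0.0779).

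Among genes of other uptake routes, 4 of 6 tested were higher and 1 was lower in each comparison, where 33.4% of all genes were higher and 30.2% lower in OMVSSDC and 27.6% and 27.1% in ZJDC. Lcn2, which encodes lipocalin 2, a protein that captures bacterial siderophores and the iron they carry, was at 568, 553 and 521 CPM in PBSDC, 3485, 3388 and 3390 CPM in OMVSSDC, and 3022, 2930 and 2870 CPM in ZJDC. It rose by 2.64 on the log2 scale in OMVSSDC (SE 0.058, edgeR adjusted p = 2.19e-09) and by 2.43 in ZJDC (SE 0.058, adjusted p = 4.29e-09), without overlap between any of the groups. Slc22a17, a proposed lipocalin 2 receptor, rose by 1.93 and 1.37, and the metal importer gene Slc39a14 by 0.67 and 0.38; both were picked after their values were seen, and the call of Slc39a14 in ZJDC was lost without PBSDC replicate 1 (edgeR adjusted p = 0.0605). Mcoln1, a lysosomal channel that can pass iron, rose by 0.81 and 0.65. Lrp1, a receptor that takes up haem bound to haemopexin among many other ligands, fell from 478 ± 25 CPM (SD, n = 3) in PBSDC to 132 ± 7.2 in OMVSSDC and 140 ± 4.8 in ZJDC.

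Of 6 genes for export oxidases and hepcidin signals, Cp alone had enough counts to be tested. Cp encodes ceruloplasmin, the ferroxidase that loads exported iron onto transferrin. Its levels were 10.6, 11.6 and 15.6 CPM in PBSDC, 64.6, 65.1 and 79.0 CPM in OMVSSDC, and 90.6, 88.9 and 83.9 CPM in ZJDC. It rose by 2.47 on the log2 scale in OMVSSDC (SE 0.14, edgeR adjusted p = 2.98e-07) and by 2.81 in ZJDC (SE 0.14, adjusted p = 2.77e-07). Cp and Slc40a1, which act in sequence on exported iron, were thus both higher in all 6 libraries.

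In haem handling, 3 of 12 tested genes were higher and 5 lower in OMVSSDC, and 2 were higher and 5 lower in ZJDC, against the same 33.4% and 30.2%, and 27.6% and 27.1%, of all genes. Slc48a1, which moves haem out of the phagolysosome, rose by 0.66 on the log2 scale in OMVSSDC (SE 0.059, edgeR adjusted p = 6.00e-06) and by 0.47 in ZJDC (SE 0.059, adjusted p = 9.27e-05). Flvcr1, first described as a haem exporter, fell by 0.46 and 0.49. Flvcr2 rose by 2.70 and 2.34, but from only 1 to 10 counts a library in PBSDC and 29 to 42 in the others. Of 3 haem synthesis enzymes picked after their values were seen, Alas1 fell by 0.33 in OMVSSDC and 0.20 in ZJDC, and Alad by 0.50 and 0.63. The call of Alas1 in ZJDC was lost without PBSDC replicate 2 (adjusted p = 0.0518) or ZJDC replicate 2 (0.0529). Fech, which inserts the iron, was at -0.17 in OMVSSDC (adjusted p = 0.263) and 0.12 in ZJDC (adjusted p = 0.438); without OMVSSDC replicate 3 it was at -0.35 in OMVSSDC and passed (adjusted p = 5.00e-05), and with that replicate as the sole library it was at 0.14.

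In the mitochondrial group 2 of 10 tested genes were higher and 2 lower in OMVSSDC (33.4% and 30.2% of all genes), and 2 were higher and 3 lower in ZJDC (27.6% and 27.1%). Both genes that rose encode mitoferrins, the importers of mitochondrial iron. Slc25a37 (mitoferrin 1) went from 150 ± 9.5 CPM (SD, n = 3) in PBSDC to 457 ± 58 in OMVSSDC and 441 ± 16 in ZJDC, a rise of 1.60 (SE 0.094, edgeR adjusted p = 3.70e-07) and 1.55 (SE 0.094, adjusted p = 7.42e-07) on the log2 scale. Slc25a28 (mitoferrin 2) rose by 0.58 and 0.31, and the call in ZJDC was lost without PBSDC replicate 2 or 3 or any single ZJDC library (adjusted p 0.0593 to 0.149).

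OMVSSDC replicate 3 stood apart in several of these genes too. Without it the log2 fold change in OMVSSDC was 2.14 for Slc22a17, and with it as the sole library of its group 1.35. In the same order the values were -1.75 and -1.33 for Epas1, -0.59 and -0.17 for Snx3, and -0.19 and -0.65 for Trf. They were 0.80 and 0.39 for Slc39a14, 0.68 and 0.32 for Slc25a28, and -0.39 and -0.78 for Alad. These 7 genes passed in edgeR in both fits.

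**Figure D4:**
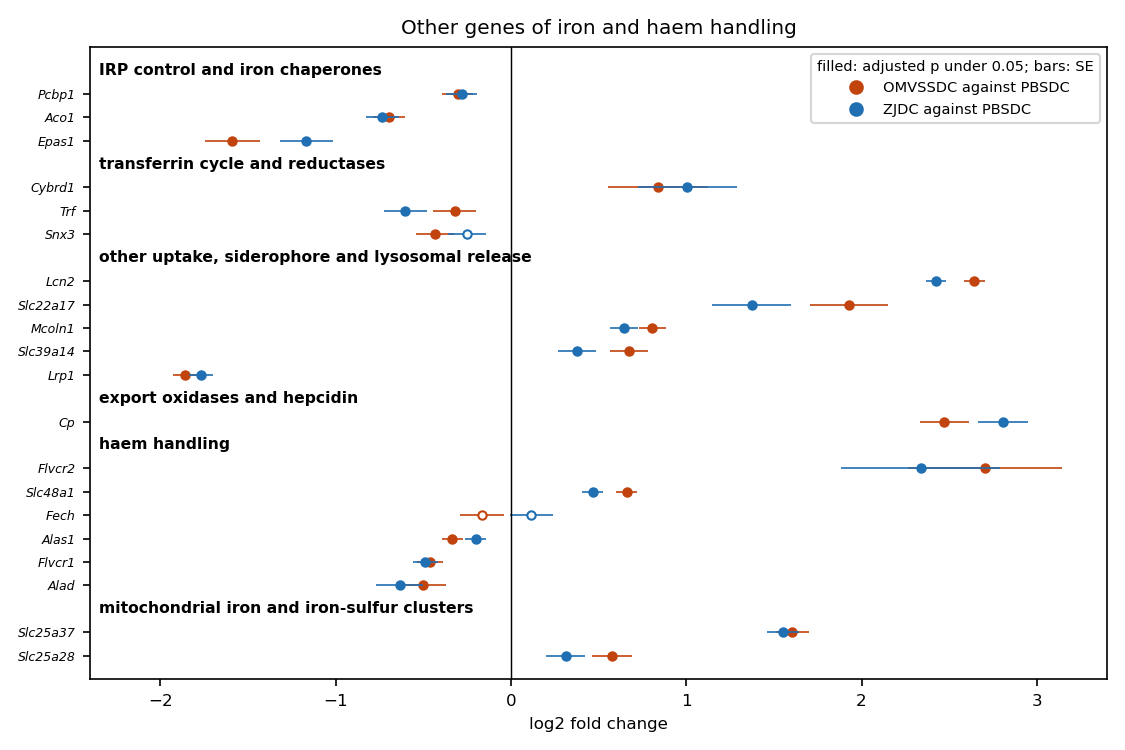
Log2 fold change against PBSDC of the genes of the further iron and haem list that are named in the text, grouped by role (Epas1 is listed with the first group), for OMVSSDC and ZJDC; bars are standard errors and filled points had an adjusted p under 0.05. Lcn2, Cp and Flvcr2 lie farthest to the right and Lrp1 and Epas1 farthest to the left.

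The genes whose levels most resembled those of single members were found by Pearson's r of log2 CPM over the 9 libraries, among 9469 genes of at least 5 CPM; the libraries share 3 groups, so high values are common, and r is a description. Nearest to Fth1 were Tbc1d9, Agap1 and Anxa4 (r of 0.9994, 0.9993 and 0.9993). Nearest to Slc40a1 were Coq8a, Nek6 and Tmem38b (0.9977, 0.9972 and 0.9960). Nearest to Tfrc were Csf1r, Ppp5c and Eif3b (0.9983, 0.9974 and 0.9972). Csf1r, the receptor for macrophage colony-stimulating factor and 1 of the 10 myeloid markers, was at a log2 fold change of -1.003 in OMVSSDC and -1.03 in ZJDC against PBSDC.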

How the data were processed

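RNA-seq of total RNA from DC2.4 cells gave 9 libraries, grouped by their titles. Per the submitters' processing notes, fastp 0.22.0, HISAT2 2.1.0 and HTSeq 0.9.1 were used; the genome build, annotation and strand setting (not given in the sources used here) stay unknown, so reads of overlapping antisense genes cannot be told apart. The deposited table gives raw read counts per gene and FPKM, which the authors derived from the counts; each FPKM equalled the count divided by gene length and library total. Rows with an identifier and no symbol (51) were kept. Counts were tested in R 4.3.3 with edgeR 4.0.16: filterByExpr (minimum count 10, minimum total 15), TMM scaling and a robust quasi-likelihood fit of all 9 libraries with group as the sole factor (6 residual degrees of freedom). Tests were two-sided, with Benjamini-Hochberg adjustment over all genes tested and a threshold of 0.05. CPM values are TMM-scaled. FPKM were used for levels between genes and for the ferritin ratio, which was compared by exact permutation.

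The members and gene lists were chosen with earlier results of these data known. Named beyond the 10 members were the 3 genes with the smallest adjusted p among those past the threshold in OMVSSDC against PBSDC in each role, every ferritin copy row, and the 3 genes most like Fth1, Slc40a1 and Tfrc; some genes of the further list are counted in its totals and not reported singly here. Other settings were RLE or library-size scaling, no filter or at least 50 counts in 3 libraries, DESeq2 1.42.0, limma-voom (limma 3.58.1), a replicate block, the 2 compared groups alone, removal of a gene length trend, each library left out, OMVSSDC replicate 3 as the sole library of its group, and ferritin summed with its copies. The code was tested on simulated data with the same spread for all genes and no library standing apart. This checked the code and not the calls reported here.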

Additional observations from a re-analysis of the deposited data

How the results depend on the processing

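Against PBSDC, the iron genes gave 173 of 192 unchanged values in OMVSSDC and 171 of 192 in ZJDC; those that changed belonged to Slc11a1, Hmox1, Ireb2 and, in ZJDC, Slc11a2. The direction turned for Slc11a1 in OMVSSDC with replicate 3 as the sole library (-0.054) and in ZJDC with library-size scaling (0.034), for Hmox1 in OMVSSDC without replicate 3 (-0.025, against 0.17 at most with a library left out), and for Fech in OMVSSDC with replicate 3 alone (0.14) and in ZJDC with the length trend removed (-0.0099). Library-size scaling brought Slc11a1 (0.19) and Hmox1 (0.24) past the threshold in OMVSSDC. Under that scaling the median of all genes there was 0.18, in place of 0.049. Relative to that median Slc11a1 was at 0.015 and Hmox1 at 0.060. Between OMVSSDC and ZJDC, 18 of 192 values turned: Ftl1 was -0.085 without the length trend, Ncoa4 0.057 with library-size scaling, 0.066 without the length trend and 0.017 without OMVSSDC replicate 2, and Tfrc 0.052 and 0.00082 under those 2 settings and -0.067 to 0.065 with each library left out. Ireb2 was -0.015 to 0.049 with each library left out, below 0 without OMVSSDC replicate 2 or ZJDC replicate 1. With OMVSSDC replicate 3 alone, Ftl1 was -0.16, Ncoa4 0.0011, Slc11a2 -0.057, Slc11a1 -0.027, Slc40a1 -0.028, Hmox1 0.14 and Ireb2 -0.056. The genes called between OMVSSDC and ZJDC, 226 as reported, numbered 1644 with DESeq2, 367 without the length trend, 355 with OMVSSDC replicate 3 alone, 0 with the 2 groups alone, and 0 to 6539 with each library left out. The iron genes called there ranged from 0 to 3 higher and 0 to 1 lower with a library left out. Of the further list, 0 to 15 were higher and 0 to 8 lower in those fits. The upper ends came without OMVSSDC replicate 3, where 6539 of 11761 genes tested were called, 49.6% of them higher. Of the further list 1 was higher under library-size scaling, 3 under DESeq2 (which called 1644 of 11568 genes) and 1 under limma-voom. The log2 ratio of Fth1 to Ftl1 in OMVSSDC was 0.68 with replicate 3 alone, a setting added after seeing the data. The higher share of calls between OMVSSDC and ZJDC went from 43.8% to 55.8% with library-size scaling, and of those in OMVSSDC against PBSDC from 52.5% to 62.4%. The cause of these changes was not tested. Same-numbered libraries did not deviate together (correlations of -0.39 to 0.089), so numbers were not taken to pair them; with the replicate number as a block, calls between OMVSSDC and ZJDC fell to 0, Ireb2 lost its call in OMVSSDC (adjusted p = 0.0902, edgeR) and ZJDC (0.0725), as did Slc11a2 (0.0538) and Slc25a28 (0.0653) in ZJDC and Trf (0.0604) and Cybrd1 (0.05) in OMVSSDC. Depth limits the low genes most: Flvcr2 and Cybrd1 rest on 1 to 51 counts a library.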
